A study of Mus musculus with 2 samples.

Results

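The genes described here are those of cytokines, chemokines and their receptors in mouse embryonic fibroblasts given FGF2. They were chosen by symbol, as every interleukin, Ccl or Cxcl chemokine, Ccr or Cxcr receptor and TNF family gene among the named genes of the array, apart from Cxcl14 and Il1rl1, which were left out. The choice gave 54 of 7409 named genes, measured by 67 probes. By their symbols 28 are ligands, 23 are receptors and 3 are neither. RefSeq lists 176 protein-coding mouse genes under this rule. Of these, 122 have no named probe and were not examined here, Tnf, Il6, Il1b, Ccl5, Cxcl10 and Il1r1 among them. Some of the 15160 probes that could not be named may read them.

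Cytokines are secreted or membrane-bound proteins that carry signals between cells. Interleukins bind receptors that work mostly through JAK kinases and STAT factors or, for the IL-1 family, through the adaptor MyD88. TNF family ligands are trimers, and many of their receptors recruit TRAF adaptors and lead to NF-kappaB or to cell death. Chemokines bind G protein-coupled receptors on leukocytes and direct their migration. Fibroblasts respond to these signals and are themselves a source of chemokines.

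Fibroblasts of the outbred NMRI stock were compared in 2 groups of 1 culture and 1 Illumina bead array each, the control (0 ng/ml FGF2) and the FGF2 group (40 ng/ml). Both had been expanded in serum, stopped from dividing with the DNA crosslinker mitomycin C and replated on gelatine at 55000 cells per cm2. Both then spent 24 h in a serum replacement medium made for human embryonic stem cells. The labels do not say how many embryos gave the cells. With 1 array in each group no difference could be tested against variation between cultures, so genes are described by size and no p-value is given. In bulk RNA a loss of cells of one type and a loss of RNA per cell cannot be told apart.

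The deposited average bead signal, a fluorescence intensity, is given first for each gene, with the bead standard deviation after the ± sign. That deviation covers the spread within an array only. A probe counted as detected with a detection score of 0.99 or more, and 7599 (31.6%) of 24044 probes passed for the control and 7424 (30.9%) for the FGF2 culture. Ratios were taken on the log2 scale, FGF2 over control, after quantile normalization. Where detection failed on one of the arrays, the value there was replaced by the floor, the lowest normalized signal of a detected probe (188.45 in control and 191.7 with FGF2), and the result is written as at least N-fold. Errors of ratios combine the bead deviations of both arrays. For the labelled cell type, 6 of 6 fibroblast markers with a named probe were detected on both arrays, among them Col1a1, Col3a1 and Dcn. Of these 6, 4 were at least 2-fold lower with FGF2, beside 2.60% of all named and detected genes. Detected markers of other cell types were 2 of 7 for macrophages and leukocytes and 2 of 4 for epithelium.

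Of the 54 genes, 17 (31.5%) were detected on at least 1 array, against 40.6% of all named genes. These were 9 of 28 ligands, 7 of 23 receptors and Tnfaip8, 1 of 3 that are neither. Detection on both arrays held for 11, on the control array alone for Cxcl9, Il7 and Tnfrsf26, and on the FGF2 array alone for Il1a, Il4 and Ccl19.

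**Figure D1:**
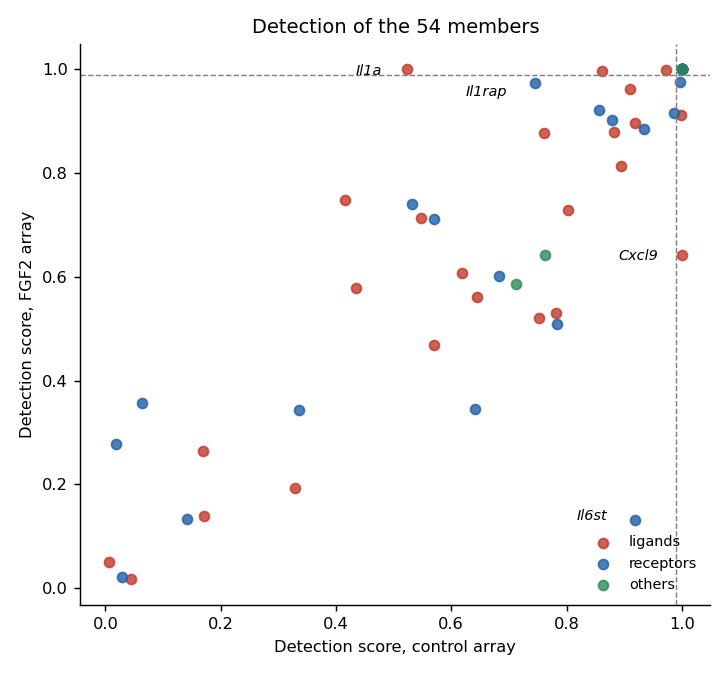
Detection scores of the 54 genes on the control array (x axis) and the FGF2 array (y axis), 1 point per gene, coloured by role; the dashed lines mark a score of 0.99. The 11 genes detected on both arrays coincide at the upper right corner, and Cxcl9 and Il1a are the detected genes with the lowest scores on the other array, 0.642 and 0.524.

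None of the 17 detected genes had a ratio or bound of 2-fold or more in either direction. For 6 of them the value is a bound, so a larger difference is possible, and Cxcl9, at least 1.96-fold lower, passed 2-fold under other settings given below. Over all 3005 named and detected genes, 1.46% were at least 2-fold higher and 2.60% at least 2-fold lower. At 1.5-fold, 1 gene was higher (Ccl2) and 3 were lower (Cxcl9, Tnfsf13 and Tnfrsf1a), against 5.29% and 6.79% of all named and detected genes. Of the other 13 genes, 8 were detected on both arrays and lay within 1.5-fold, and 5 (Il1a, Ccl19, Il4, Il7 and Tnfrsf26) had bounds under 1.5-fold, which do not limit the difference from above. Among all named and detected genes, 2642 (87.9%) had a ratio or bound under 1.5-fold. The counts at 1.5-fold moved with the values used. They were 3 ligand genes higher (Ccl2, Il1a and Ccl19) and 4 lower (Cxcl9, Tnfsf13, Cxcl16 and Il7) in the authors' value table. With signals as deposited no ligand gene was higher and 3 receptor genes were lower. The median log2 ratio was 0.13 over the 9 ligands and −0.10 over the 7 receptors, beside 0.028 over all named and detected genes. Since 5 of the 9 ligand values are bounds, the ligand median is that of a bound, and over the 4 ligands detected on both arrays it was −0.15.

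**Figure D2:**
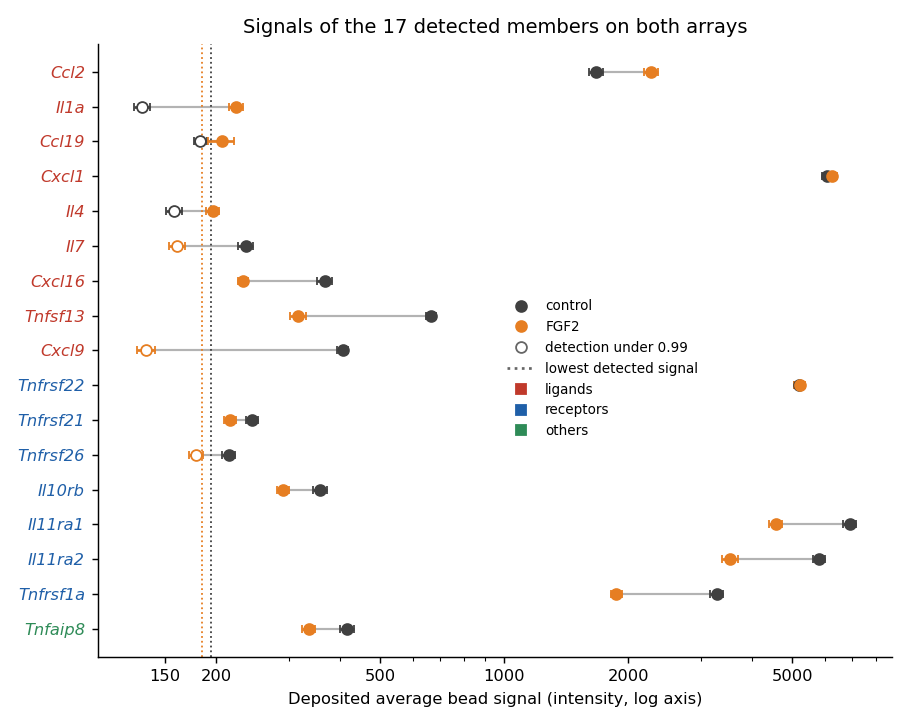
Deposited signals of the 17 detected genes, 1 row per gene, with the control array in grey and the FGF2 array in orange on a log axis; error bars are bead standard deviations, open circles have a detection score under 0.99, and dotted lines mark the lowest detected signal of each array. Only positions within a row can be compared, since probes differ in brightness; Cxcl9 and Tnfsf13 show the widest gaps toward control, and the circles of Cxcl1 and of Tnfrsf22 nearly coincide.

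Sequence upstream of the gene is shown for those of the 4 genes at 1.5-fold that have an entry in the RefSeq promoter table (Cxcl9, Tnfsf13 and Tnfrsf1a). It is also shown for Cxcl1, a chemokine gene whose deposited signals were nearly level. Each line holds the 250 bases before the RefSeq gene start, from 5′ to 3′ on the gene's strand, in assembly GRCm38.p6. The windows are chr5:92328080-92328329 (minus strand) for Cxcl9, chr11:69685555-69685804 (minus strand) for Tnfsf13, chr6:125349473-125349722 (plus strand) for Tnfrsf1a and chr5:90890995-90891244 (plus strand) for Cxcl1. Capitals mark matches on either strand to the letters GGNNTTTCC (an NF-kappaB type), TTCNNNGAA (a STAT type), GAAANNGAA (a core of the interferon-stimulated element). They also mark the AP-1 letters TGANTCA, on either strand. The remaining motifs, searched the same way, were the TATA box, spelled TATAAA, and the GC box. The latter is spelled GGGCGG.
Cxcl9: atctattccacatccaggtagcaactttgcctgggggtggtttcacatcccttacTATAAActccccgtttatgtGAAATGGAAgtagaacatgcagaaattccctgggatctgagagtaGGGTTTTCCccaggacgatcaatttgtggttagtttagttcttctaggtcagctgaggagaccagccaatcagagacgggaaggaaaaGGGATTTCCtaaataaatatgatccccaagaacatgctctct
Tnfsf13: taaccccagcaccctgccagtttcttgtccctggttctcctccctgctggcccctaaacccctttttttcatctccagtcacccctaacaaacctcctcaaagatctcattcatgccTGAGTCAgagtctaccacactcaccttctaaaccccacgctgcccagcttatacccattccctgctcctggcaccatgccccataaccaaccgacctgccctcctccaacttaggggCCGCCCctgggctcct
Tnfrsf1a: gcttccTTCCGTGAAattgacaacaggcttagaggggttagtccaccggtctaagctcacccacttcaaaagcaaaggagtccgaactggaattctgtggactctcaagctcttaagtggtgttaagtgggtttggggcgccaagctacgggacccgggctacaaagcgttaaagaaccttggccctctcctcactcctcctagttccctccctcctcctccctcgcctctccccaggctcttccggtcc
Cxcl1: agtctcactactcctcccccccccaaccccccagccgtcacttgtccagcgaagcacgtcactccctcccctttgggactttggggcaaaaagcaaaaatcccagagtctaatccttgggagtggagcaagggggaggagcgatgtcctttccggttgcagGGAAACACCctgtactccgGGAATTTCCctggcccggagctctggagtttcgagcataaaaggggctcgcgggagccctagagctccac

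Both chemokine windows shown here held the NF-kappaB letters, which 4.93% of 32851 RefSeq windows of this length hold. Cxcl9 held them as GGGTTTTCC and GGGATTTCC, starting 130 and 42 bases before the gene start, and Cxcl1 as GGAAACACC (the reverse strand) and GGAATTTCC, starting 89 and 70 bases before it. Cxcl9 also held GAAATGGAA (7.13% of windows hold that motif) and TATAAA (12.4%), starting 175 and 195 bases before the gene start. Tnfsf13 held an AP-1 match (6.75% of windows) and a GC box (32.7%), and Tnfrsf1a a STAT-type match, TTCCGTGAA (7.02%). No marked match overlapped another. Of the 17 detected genes 10 have an entry, and the NF-kappaB letters were in the windows of 2 of the 10, Cxcl1 and Cxcl9. The window of Ccl19, a detected chemokine gene with an entry that is not shown, did not hold them. A match describes letters only and is no evidence of binding.

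Among the chemokine genes, Ccl2, whose product attracts monocytes through the receptor Ccr2, was the 1 detected gene at least 1.5-fold higher. Its signal was 1672.5 ± 68.8 in control and 2271.5 ± 87.8 with FGF2, both well above the floor. The ratio was 1.60-fold higher (log2 0.67 ± 0.081). It was 1.36-fold higher with signals as deposited and 1.78-fold higher in the authors' value table.

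Cxcl1 encodes a chemokine that attracts neutrophils through Cxcr2. Its signals before scaling, 6076.8 ± 184.8 in control and 6231.0 ± 194.3 with FGF2, differed by less than the bead deviation of either. The ratio after scaling was 1.13-fold higher (0.18 ± 0.063), above its bead error. It was 1.31-fold higher in the authors' value table.

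Cxcl9 encodes a chemokine that is induced by interferon gamma and attracts T cells through Cxcr3. The signal was 405.7 ± 12.7 in control, with a score of 1, and 135.4 ± 7.0 with FGF2, with a score of 0.642. The control signal was thus detected and the FGF2 signal was not well above background. The gene was at least 1.96-fold lower, and the scaled signals without a floor stood 2.74-fold apart. The bound passed 2-fold with signals as deposited (2.19-fold), after normexp background correction (2.30-fold) and in the authors' value table (4.04-fold).

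Cxcl16 encodes a membrane-anchored chemokine that is also shed. Its signal was 367.1 ± 14.9 in control and 232.4 ± 6.7 with FGF2, detected on both arrays. It was 1.39-fold lower (−0.47 ± 0.072), under the 1.5-fold mark, while the authors' value table gave 1.82-fold lower.

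Ccl19 encodes a chemokine of lymphoid tissue that acts through Ccr7. It read 182.9 ± 6.6 in control and 206.4 ± 14.8 with FGF2, where it was detected. The bound was at least 1.15-fold higher (1.60-fold in the authors' value table), and the signals differed by more than either bead deviation. The 9 other chemokine genes were undetected on both arrays. Cxcl2 and Cxcl3, relatives of Cxcl1, read 118.6 and 129.2 in control and 115.6 and 132.6 with FGF2. Cxcl12, the ligand of Cxcr4, read 125.2 and 118.2. Ccl1, Ccl21a, Ccl21c, Ccl25, Ccl27a and Ccl28 had scores of at most 0.961.

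Among the interleukin genes, each of the 3 detected was so on 1 array only. Il1a, which encodes an alarmin of the IL-1 family, read 132.3 ± 6.1 in control (score 0.524) and 223.7 ± 8.8 with FGF2 (score 1). It was at least 1.26-fold higher, and the scaled signals without a floor stood 1.81-fold apart. The authors' value table gave a bound of 1.97-fold. The FGF2 signal was above background and the control signal was not.

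Il7, which encodes a growth factor of lymphocytes, read 236.0 ± 9.5 in control and 161.0 ± 7.2 with FGF2 (score 0.912). It was at least 1.17-fold lower, and 1.37-fold without a floor. Il4, a cytokine gene of type 2 immunity, read 158.0 ± 7.2 in control (score 0.861) and 196.2 ± 7.3 with FGF2 (score 0.996). Its bound was at least 1.09-fold higher, and its FGF2 signal lay close to the lowest detected signal of that array, 184.9. The 7 undetected interleukin genes were Il12a, Il16, Il17b, Il18, Il1f5, Il21 and Il22, with scores between 0.0169 and 0.918.

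Of 4 TNF family ligand genes, Tnfsf13 was detected. It encodes APRIL, a survival factor of plasma cells. Its signal was 663.9 ± 17.5 in control and 316.2 ± 14.8 with FGF2, clear of the floor on both arrays. It was 1.80-fold lower (−0.84 ± 0.077), and 2.10-fold lower with signals as deposited and 2.25-fold in the authors' value table. RefSeq lists Tnfsf12 and the joint gene Tnfsfm13 beside it, so the probe may also read transcripts that run from Tnfsf12 into Tnfsf13. The Tnfsf12 probe, at 98.7 and 108.6, was undetected, as were those of Tnfsf13b (BAFF) and Tnfsf18.

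These values depended on scaling. The median log2 ratio of all named and detected genes was −0.14 with signals as deposited and 0.12 in the authors' value table, whose background is subtracted and whose FGF2 array is rescaled. Relative to those medians, Cxcl9 lay at −0.99 as deposited and −2.13 in the authors' table, and Tnfsf13 at −0.93 and −1.29. On the same footing Ccl2 lay at 0.59 and 0.71, and Tnfrsf1a at −0.67 and −0.62. The direction of these 4 genes was the same in each of the alternatives that gave them a value. For Cxcl9, detected on the control array alone, the direction largely follows from the detection rule. Each of the 4 has 1 probe, so the mean over probes and stricter detection could not alter its value.

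**Figure D3:**
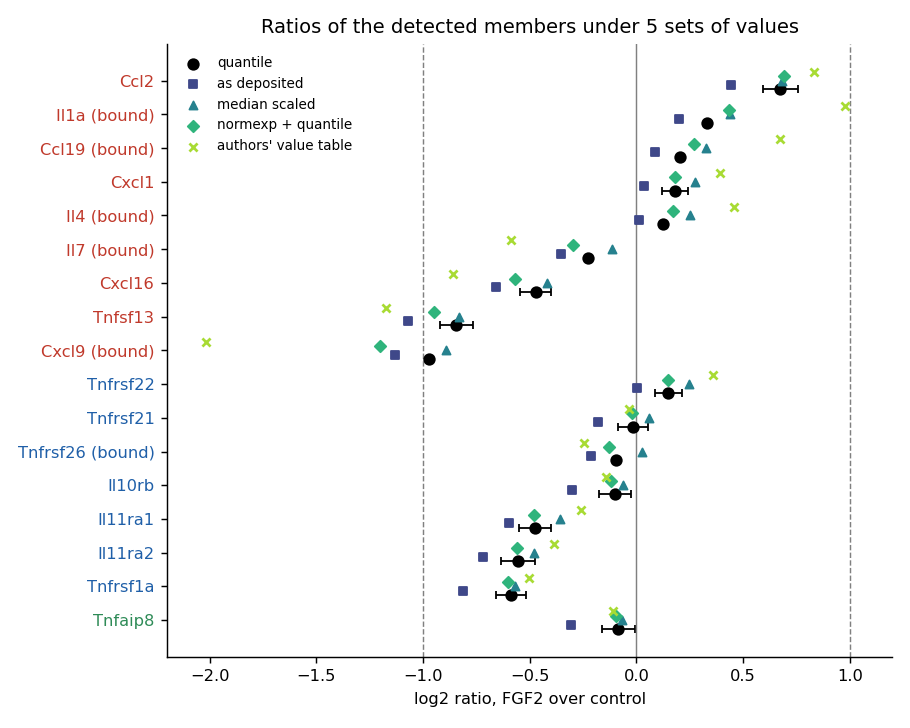
log2 ratios (FGF2 over control) of the 17 detected genes under 5 sets of values: quantile normalized signals (black, with the combined bead error where the gene was detected on both arrays), signals as deposited, median scaled signals, normexp with quantile normalization, and the authors' value table. Dashed lines mark 2-fold; Cxcl9 and Tnfsf13 pass the lower line in some sets and no gene passes the upper line.

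Among receptor genes, 6 of the 7 detected lay below 0, beside 1343 of 3005 over all named genes. With median scaling this count was 4 of 7, since Tnfrsf21 and Tnfrsf26 moved above 0. Of the 6, Tnfrsf26 is a bound whose sign largely follows from the detection rule, and Tnfrsf21 lay within its bead error. Il11ra1 and Il11ra2 are near-identical copies, so their probes may not be separate observations. The count is thus no evidence of a tendency of receptor genes. The largest difference was in Tnfrsf1a, which encodes the TNF receptor that carries a death domain. Its signal was 3282.2 ± 120.2 in control and 1870.9 ± 56.7 with FGF2, far from the floor on both arrays. It was 1.503-fold lower (−0.59 ± 0.069), at the 1.5-fold mark itself. It was under that mark in the authors' value table (1.42-fold lower) and with scaling by the median (−0.571), and 1.75-fold lower with signals as deposited. Its counterpart Tnfrsf1b, the other TNF receptor, was undetected at 157.3 and 164.2.

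The receptor for IL-11 pairs a binding chain with the signalling chain gp130, the product of Il6st. The brightest Il11ra1 probe read 6892.5 ± 261.7 in control and 4555.5 ± 157.2 with FGF2, a ratio 1.39-fold lower (−0.47 ± 0.074). The brightest probe of Il11ra2, a near-identical copy of the gene in the mouse, read 5822.5 ± 193.6 and 3535.2 ± 156.7, a ratio 1.47-fold lower (−0.55 ± 0.080). Both probes were lower with FGF2 by more than the bead deviations, and which of the copies each probe reads is uncertain. The other Il11ra1 probes, at 280.5 and 243.2 in control and 214.3 and 199.6 with FGF2, gave −0.22 and −0.13. The other Il11ra2 probe was undetected. Il6st itself read 169.2 ± 8.2 in control (score 0.918) and 115.3 ± 5.9 with FGF2 (score 0.131) and was undetected on both.

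Il10rb encodes a chain shared by the receptors for IL-10, IL-22 and the lambda interferons. It read 357.8 ± 14.3 in control and 290.3 ± 9.9 with FGF2, a ratio of −0.10 ± 0.076 after scaling. Tnfrsf21, which encodes death receptor DR6, read 244.4 ± 8.4 and 215.9 ± 7.3, a ratio of −0.018 ± 0.070. The scaled difference of Il10rb was slightly larger than its bead error, and that of Tnfrsf21 was smaller.

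Tnfrsf22 encodes a mouse decoy receptor for TRAIL. Its brightest probe read 5193.8 ± 152.4 in control and 5211.8 ± 170.5 with FGF2, a difference under the bead deviation before scaling. The scaled ratio was 0.15 ± 0.063, and the authors' value table gave 1.28-fold higher. Tnfrsf22 was the 1 detected receptor gene above 0, and its other probe was undetected at 114.8 and 119.8. Tnfrsf26, its neighbour on chromosome 7, read 214.6 ± 7.8 in control and 179.0 ± 6.8 with FGF2 (score 0.976) and was at least 1.07-fold lower. Tnfrsf23, which is similar to Tnfrsf22 and lies beside both, has no named probe, so signal shared with it is possible.

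The 16 undetected receptor genes read at most 191.8 in control and at most 178.4 with FGF2. They included Ccr9, Cxcr2, Il17ra, Il1rap, Il1rl2, Il27ra, Il2ra, Il6ra, Il6st, Il7r, Tnfrsf10b, Tnfrsf13b, Tnfrsf1b, Tnfrsf8 and Tnfrsf9. Closest to the detection limit from below were Il17ra (score 0.987 in control), the receptor chain for IL-17, and Il1rap (0.973 with FGF2), the accessory chain of the IL-1 receptor. Closest from above were Il4 (0.996) and Tnfrsf26 (0.998). Several of these are receptors of ligands that were detected. Cxcr2, the receptor of Cxcl1, read 161.3 and 159.4, and Il7r, the receptor chain for IL-7, read 117.1 and 115.5. Tnfrsf13b, a receptor of APRIL, read 111.5 and 124.4. A score under 0.99 says that a probe was not well above background, not that the transcript was absent.

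Of the 3 genes that are neither ligand nor receptor, Tnfaip8, a TNF-induced regulator of cell death, read 416.1 ± 17.1 in control and 336.1 ± 12.1 with FGF2, a scaled ratio of −0.084 ± 0.079. Tnfaip6, a hyaluronan-binding protein gene, was undetected at 146.6 and 135.4. Il4i1, the gene of a secreted amino acid oxidase, was undetected at 142.7 and 133.1.

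**Figure D4:**
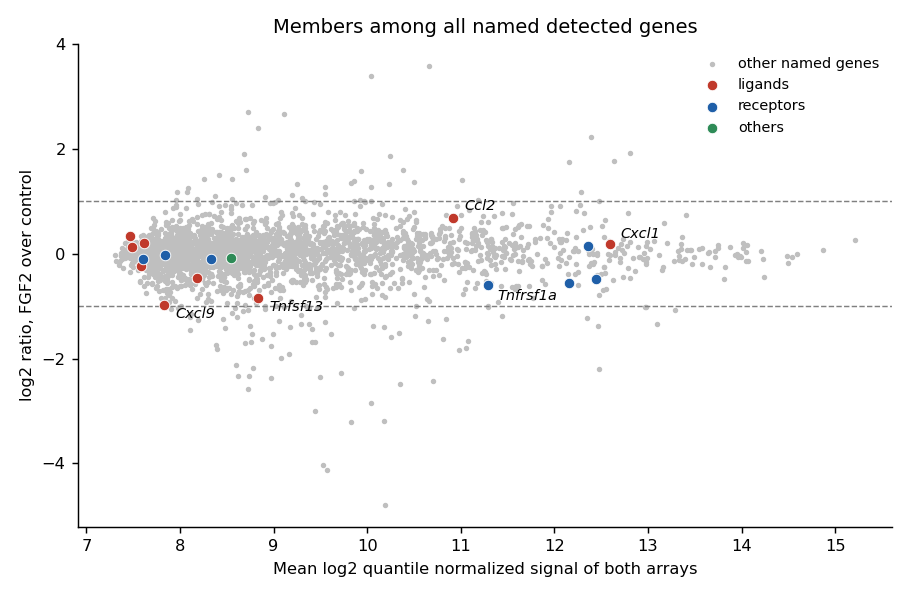
log2 ratio (FGF2 over control) against the mean log2 quantile normalized signal of both arrays for the 3005 named and detected genes (grey), with the 17 detected cytokine, chemokine and receptor genes coloured by role. Dashed lines mark 2-fold; the coloured points, of which 6 are bounds, lie between the lines, with Cxcl9 and Tnfsf13 nearest the lower one.

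Of the other genes listed for the same pathways, Socs2, Ptx3 and Vcam1 passed 2-fold. Over all named and detected genes 1.46% were at least 2-fold higher and 2.60% at least 2-fold lower. The lists were chosen with earlier results known, so these genes do not stand for their pathways. Of 15 JAK, STAT and SOCS genes described here 9 were detected, with 1 at least 2-fold higher and a median of −0.088. Socs2, a feedback inhibitor of cytokine and growth hormone receptors, read 211.8 ± 7.0 in control, near the floor, and 523.7 ± 15.5 with FGF2. It was 2.82-fold higher (1.496 ± 0.064). The log2 ratio ranged from 1.31 with signals as deposited to 2.71, or 6.55-fold, in the authors' value table. Socs1, another feedback inhibitor, was at −0.40 and the STAT inhibitor gene Pias1 at −0.38.

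Of 41 listed genes for adaptors and kinases of TNF and IL-1 receptors and for NF-kappaB, 16 had a named probe and 12 were detected. Rel was the only NF-kappaB subunit gene with a named probe and was undetected, at 115 in control and 130.6 with FGF2. None of the 12 had a ratio or bound of 1.5-fold (median −0.017), beside 87.9% of all named and detected genes under 1.5-fold. The extremes of the 12 were Ripk1, a kinase of the TNF receptor complex, at −0.38 ± 0.078 and the TRAF family gene Traf4 at 0.44 ± 0.067. Fadd, an adaptor of death receptors, was at −0.17, and Birc2, a ubiquitin ligase of the same complex, was at least 1.12-fold lower.

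Of 20 genes listed as NF-kappaB targets in fibroblasts 4 had a named probe, and each was detected. Ptx3, a secreted pentraxin of innate immunity, read 3612.6 ± 104.3 in control and 169.3 ± 6.2 with FGF2 (score 0.942). It was at least 17.4-fold lower, and the bound in the authors' value table was 52.0-fold. Vcam1, an adhesion molecule for leukocytes, read 4059.1 ± 87.9 and 1105.5 ± 32 and was 3.16-fold lower (−1.66 ± 0.052). The cyclooxygenase gene Ptgs2 went the other way. It read 145.9 ± 4.9 in control (score 0.758) and 283.6 ± 12.2 with FGF2 and was at least 1.61-fold higher, a bound that passed 2-fold in the authors' value table (3.26-fold). Bcl3 was at −0.17. Ccl2 and Cxcl1, also known as NF-kappaB targets, were 1.60-fold and 1.13-fold higher. Cxcl9, whose upstream window held the NF-kappaB letters, was at least 1.96-fold lower. Directions thus differed both within the listed targets and within these chemokine genes. The part of NF-kappaB in these differences was not tested.

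Cytokine and receptor genes whose names lie outside the rule were few. Of 5 other ligand genes with a named probe 3 were detected, Mif at 0.46 ± 0.055, Cx3cl1 at −0.053 ± 0.088 and Clcf1 at least 1.19-fold higher. The authors' value table gave 1.53-fold for Mif and a bound of 1.72-fold for Clcf1. Of 11 other receptor genes 2 were detected. Ifngr2, a chain of the interferon gamma receptor, read 1536.3 ± 46.5 in control and 2214.4 ± 76.8 with FGF2 and was 1.68-fold higher (0.75 ± 0.066). Cd40, a TNF family receptor, read 207.1 ± 9.2 and 262.4 ± 6.4 and was at 0.49 ± 0.073. In the authors' value table it passed 2-fold (2.31-fold higher). Lifr and Csf1r were undetected. Cxcl9, which interferon gamma induces, was lower with FGF2 while Ifngr2 was higher, and a link between them was not tested.

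**Figure D5:**
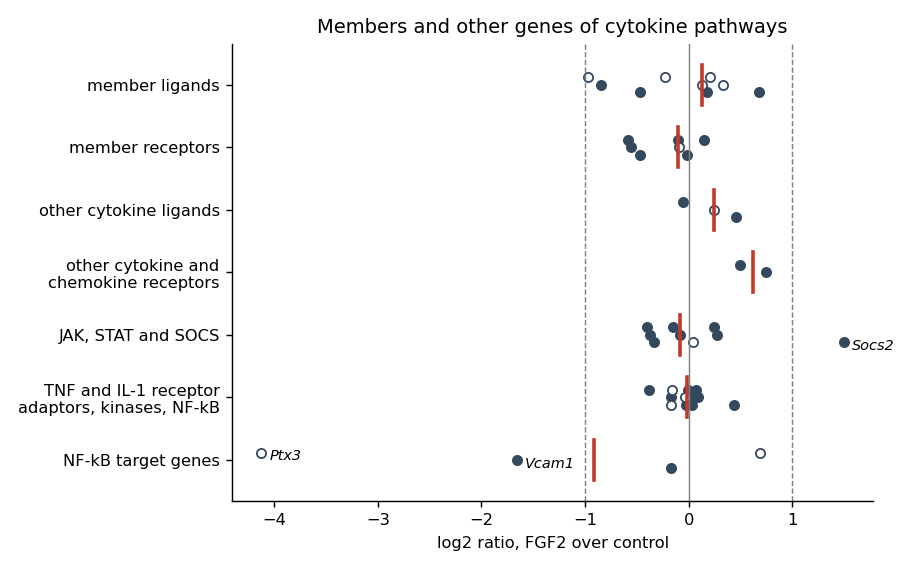
log2 ratios (FGF2 over control) of the detected ligand and receptor genes and of the detected genes of 5 further lists, 1 point per gene; open circles are bounds, red bars are medians, and dashed lines mark 2-fold. The genes outside the dashed lines are Socs2, Ptx3 and Vcam1.

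Leukocytes are a known source of many of these cytokines, and their markers were measured on the same arrays. Named probes existed for 7 macrophage and general leukocyte markers, and 2 of them passed detection. The summed signal of all 7, of which 5 were not above background on either array, was 1232.0 in control and 1122.3 with FGF2. Lyz2 read 374.8 ± 13.6 and 220.2 ± 11.9 (−0.58 ± 0.094), and Cd53 read 176.7 ± 5.4 and 318.7 ± 13.9 (at least 1.82-fold higher, and 4.02-fold in the authors' value table). Ptprc, Itgam, Csf1r, Cd68 and Cd52 were undetected on both arrays. The T cell marker Cd3e, the mast cell markers Cma1, Fcer1a and Mcpt4, and the endothelial markers Pecam1 and Emcn were also undetected on both. Of 4 epithelial markers Krt18 and Cldn4 were detected, at least 1.52-fold higher and at −0.0078. Of the 6 fibroblast markers, 4 were at least 2-fold lower with FGF2, beside 2.60% of all named and detected genes. The summed signal of the 6 was 33358.4 in control and 15792 with FGF2. The part of these markers' cells, or of other cell types, in the values above was not tested.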

How the data were processed

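Total RNA from 1 control and 1 FGF2 culture was amplified from 300 ng with 6 h of in vitro transcription and read on 1 array each, per the labels' protocols. Signals came from BeadStudio 1.0, per the submitters' processing notes. The sources used here name no normalization. The deposited array tables give, per probe, a detection score, a fraction from 0 to 1, beside a mean bead intensity and the standard deviation over beads. The authors' value table, also of linear intensity, was set against these. Its control column equals the signal less 135.4 and its FGF2 column a line with slope 1.28 and intercept −169.4. It is empty where the score is under 0.99.

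Identifiers with 1 or 2 leading zeros before a number were read as NCBI gene numbers and named through RefSeq (GRCm38.p6). This named 8884 (36.9%) of 24044 probes. The names rest on that reading of the identifiers, which the files do not state. The probe with the highest mean signal stood for its gene. Signals were quantile normalized with limma 3.58.1 in R 4.3.3. A floor was then set and log2 taken, with no background subtraction, which understates the folds of dim genes. The steps were tested on simulated data, with known changes put into bright probes only. Detection was set the same on both simulated arrays, so values written as at least N-fold were not tested. Calls at 2-fold and 1.5-fold describe size only. Alternatives were signals as deposited, median scaling, normexp (offset 50) with quantile normalization, the authors' value table, an offset of 16 with no floor, the mean over detected probes, and stricter detection.

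The genes, lists and marker sets were chosen with earlier results of these data known. A gene of the JAK, STAT and SOCS list and a gene of the rule are not reported here by name, and the former is left out of that list's counts. Both signals are given for each detected gene of the rule, and up to 4 genes with the largest differences for each pathway list. The upstream sequences were chosen after the values were seen, since no gene passed 2-fold. Precision is limited by the number of arrays.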

Additional observations from a re-analysis of the deposited data

How the results depend on the processing

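No paired analysis was possible because each group had 1 sample. No detected ligand, receptor or other gene of the rule was at least 2-fold higher under any of the 8 alternatives, and no receptor gene was 2-fold lower. The count of ligand genes at least 2-fold lower, 0 in the values reported, was 2 with signals as deposited and 2 in the authors' value table (Cxcl9 and Tnfsf13). It was 1 with normexp and 1 with an offset and no floor (Cxcl9). The median ligand ratio, 0.13, was 0.012 as deposited, 0.39 in the authors' value table and 0.25 with median scaling. It was −0.15 for genes detected on both arrays, a setting that leaves out the bounds. It was also −0.15 for a higher detection minimum, which keeps Cxcl9 and Il1a, whose values are bounds. The median receptor ratio, −0.10, was −0.30 as deposited, −0.24 in the authors' value table, and −0.29 under either stricter detection rule. At 1.5-fold, 1 ligand gene was higher and 2 lower in the values reported. These counts were 0 and 3 as deposited, 3 and 4 in the authors' value table and 2 and 2 with an offset and no floor. The 1 receptor gene lower became 3 as deposited and 0 with median scaling, in the authors' value table and with an offset. Detection on both arrays left 4 of 9 ligands. Over all named genes, the 44 genes at least 2-fold higher became 28 as deposited and 138 in the authors' value table, and the 78 lower became 113 and 158. The share of higher among changed genes therefore shifted with scaling, and the cause was not tested. Of the 17 detected genes, 15 had the same sign under every setting that gave a value. Tnfrsf21 (0.061) and Tnfrsf26 (0.025, where its bound fell below 1) turned positive with median scaling. This agreement is weak support. Bounds compare a detected signal with a floor, which largely sets their sign. The mean over probes and stricter detection could not alter the value of a gene with 1 probe. Genes at signals near the floor, such as Il4, Ccl19, Il7 and Tnfrsf26, carry little information on the size of a difference.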

Other observations

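Several of these genes lie in clusters, and neighbours differed in detection in some clusters. Within 5 protein-coding genes in RefSeq's order, Ccl2 has Ccl1 beside it, which was undetected at 162.1 in control and 155.9 with FGF2, while Ccl7, Ccl8, Ccl11 and Ccl12 have no named probe. Cxcl1 has Cxcl2 and Cxcl3 beside it, both undetected. Cxcl9 has Cxcl10 beside it, with no named probe. On chromosome 4, Il11ra1 lies beside Ccl27a, and Il11ra2 beside Ccl19 and Ccl21a. The brightest Il11ra1 and Il11ra2 probes were detected on both arrays, Ccl19 on the FGF2 array, and Ccl27a (145.4 and 129.9) and Ccl21a (128.3 and 142.0) on neither.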
